A study of Homo sapiens with 6 samples.

Results

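The adenylyl cyclase family comprises 10 genes, ADCY1 to ADCY10, out of 57123 genes with counts in these data. Its members were listed by gene symbol, and the family was chosen by its measured levels in HEK293 WT and HEK293 MUL1(-/-) cells, so the comparison of the genotypes is given for the members as a description without a test. HEK293 is a line of human embryonic kidney cells, and MUL1 is an E3 ubiquitin ligase of the mitochondrial outer membrane that was inactivated with CRISPR-Cas9 in the MUL1(-/-) cells. RNA of both genotypes was sequenced in 6 libraries, 3 per genotype, from cells grown untreated in DMEM with fetal calf serum. Whether the MUL1(-/-) libraries came from 1 clone is not given in the sources used here, so a difference between the genotypes and a difference between clones cannot be told apart.

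Adenylyl cyclases convert ATP to cyclic AMP (cAMP), the intracellular messenger that activates protein kinase A and the exchange factors of the EPAC group. All members except ADCY10 are membrane proteins that Gs-coupled receptors switch on through the G protein subunit encoded by GNAS, and they differ in what else they sense. ADCY1, ADCY3 and ADCY8 are stimulated by calcium and calmodulin, ADCY2, ADCY4 and ADCY7 by G protein beta-gamma subunits, and ADCY5 and ADCY6 are inhibited by calcium. ADCY9 is set apart by its weak response to forskolin, and ADCY10 is the soluble cyclase, which bicarbonate activates.

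Counts were added up over the exon bins of each gene, and the totals came to 127015142 to 142803296 per WT library and 121917971 to 122441959 per MUL1(-/-) library. Levels are given as CPM (counts scaled to a common library size) with trimmed mean of M values scaling, where 3 counts correspond to 0.0212 to 0.0242 CPM, and each mean is followed by its SD over 3 libraries. MUL1 RNA itself was at 16.5 ± 2.15 CPM in WT and 18.2 ± 1.35 CPM in MUL1(-/-) libraries, a log2 fold change of 0.14 (SE 0.10, edgeR quasi-likelihood adjusted p = 0.321), so the RNA does not check the genotype labels. All 6 genes listed for HEK293 cells reached 1 CPM in every library, with a summed level of 1258 to 1436 CPM in WT and 911 to 1055 CPM in MUL1(-/-) libraries. Most of it came from VIM. Of 11 marker genes of other cell types, 7 were under 1 CPM in every library, APOB had 0 counts, and the fibroblast genes COL1A1, COL1A2 and DCN were above 1 CPM in all 6, with a sum over the 11 of 23.9 to 31.2 CPM in WT and 21.9 to 27.2 CPM in MUL1(-/-) libraries. COL1A1 carried most of that sum. Past both thresholds, 4 of the 11 were higher, 3 of them under 1 CPM in every library, with log2 fold changes of 1.94 for PTPRC, 2.06 for PECAM1, 1.80 for VWF and 1.30 for DCN, and 0 were lower, while the HEK293 gene PAX2 fell from 9.46 to 2.72 CPM (log2 fold change -1.80, edgeR quasi-likelihood adjusted p = 1.53e-06). By an adjusted p under 0.05 alone, the HEK293 genes VIM, KRT8 and LHX1 were lower too, with log2 fold changes of -0.34, -0.93 and -0.55. CDH2 was higher (0.19) by the same rule, and KRT18 was not past it. What part these markers have in the differences was not tested. In bulk RNA, fewer cells that make a transcript and less of it per cell cannot be told apart.

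In HEK293 WT cells the family consisted mostly of ADCY3 and ADCY6, with ADCY9, ADCY7 and ADCY1 behind them, and the MUL1(-/-) cells had much the same composition. What differed was ADCY2, which was at or below 3 counts in each WT library and at 280 to 349 counts in each MUL1(-/-) library. It was the only member past both thresholds (an adjusted p under 0.05 together with a log2 fold change above 1 or below -1), 1 of the 9 members tested, where 4.23% of all 25125 tested genes were higher and 3.87% lower by the same rule. By the adjusted p alone it was again 1 of 9, beside 37.5% of all tested genes. The log2 fold changes of the other 8 tested members lay between -0.20 and 0.40. Across the 9, the median log2 fold change was 0.07, beside -0.01 for all tested genes. Groups did not overlap for 2 of the 9, ADCY2 and ADCY7, where 48.5% of all tested genes did not overlap. Because the members were chosen with these values known, nothing is read from those counts.

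**Figure D1:**
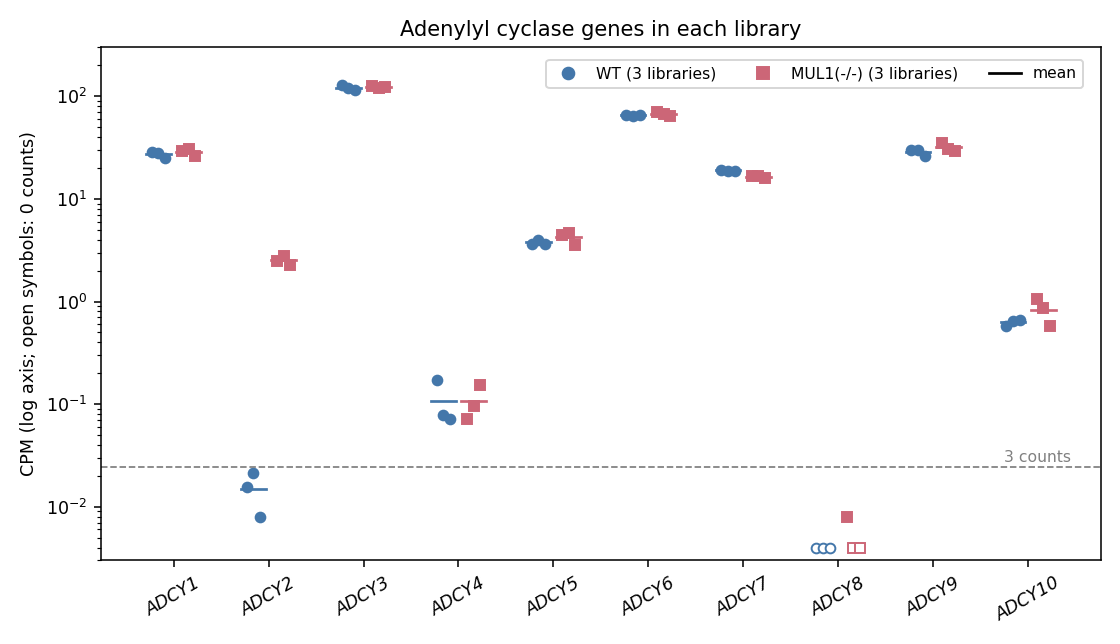
Level of each adenylyl cyclase gene in each library, in CPM on a log axis, with circles for the 3 WT and squares for the 3 MUL1(-/-) libraries, bars at the means, open symbols for 0 counts and a dashed line at 3 counts. ADCY2 lies at 0.0150 CPM in WT and 2.52 CPM in MUL1(-/-) libraries on average, while the points of the 8 other tested members lie close together between genotypes.

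The stretch upstream of the start of ADCY2 is shown because this was the member that differed. ADCY2 (ENSG00000078295) lies on the plus strand of chromosome 5 of GRCh38 from 7396208 to 7830081 in the deposited tables. The 250 bases before its RefSeq start, chr5:7395888-7396137 on the plus strand of GRCh38.p14, are printed with capitals for matches to the GC box GGGCGG on either strand.
ADCY2: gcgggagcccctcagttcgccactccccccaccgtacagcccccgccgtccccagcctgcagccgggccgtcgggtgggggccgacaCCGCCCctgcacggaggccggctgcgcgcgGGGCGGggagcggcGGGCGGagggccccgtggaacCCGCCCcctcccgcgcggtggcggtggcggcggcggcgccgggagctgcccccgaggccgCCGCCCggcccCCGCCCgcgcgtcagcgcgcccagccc
These bases hold 40 CpG dinucleotides and 6 GC boxes, and the window extended to 50 bases past the start holds 50 and 7. Among 35116 RefSeq promoter windows of 300 bases the median was 14 CpG dinucleotides, and 44.95% held a GC box. RefSeq windows were matched for 7 of the 10 members, with 10 windows in all. ADCY6 and ADCY9 had none in the table, and ADCY8 was left out of the search. The windows of ADCY3, the most abundant member, held 53 and 36 CpG dinucleotides and 9 and 2 GC boxes. Those of ADCY1 held 18 and 48 CpG dinucleotides and 0 and 4 GC boxes, and 1 window of ADCY5 held 33 and 2. The ADCY4 window held 21 CpG dinucleotides. Fewer were in the windows of ADCY7, with 12, and ADCY10, with 6, and fewest in the other window of ADCY5, with 2. These last 4 windows held no GC box. A link between these letters and the RNA levels was not tested. The TATA box TATAAA, sought on both strands, was in 1 of the 10 windows, one of ADCY5, and in 11.53% of all windows. A match is a description of the letters and not evidence of a bound factor.

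ADCY2 belongs to the beta-gamma-stimulated cyclases and is known best from brain. Its counts were 2, 3 and 1 in WT libraries 1 to 3 and 316, 349 and 280 in MUL1(-/-) libraries 1 to 3. In CPM these were 0.0157, 0.0212 and 0.00794 against 2.498, 2.79 and 2.26. All WT libraries lay at or under the floor of 3 counts and all MUL1(-/-) libraries far above it, without overlap. Mean levels were 0.0150 ± 0.00667 CPM in WT and 2.52 ± 0.265 CPM in MUL1(-/-) libraries, which is at least 106-fold higher when WT is set to the floor of 3 counts per library, 0.0238 CPM. The fitted log2 fold change of 7.28 (SE 0.28) depends on the prior count for a gene this close to 0 and is not a bound. That SE is derived from the edgeR test value, and DESeq2 gave 7.38 with a larger SE of 0.61. By the edgeR value ADCY2 stood 10th of 25125 tested genes.

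Few genes went from so few counts to so many. At most 3 counts in every WT library and at least 100 in every MUL1(-/-) library were found for 5 of 57123 genes, or 0.00875%, a pattern chosen after the values of ADCY2 were seen. The others were ENSG00000283692, LINC01896, SALL3 and SI. In the opposite direction, 8 genes met the pattern, none of them a cyclase.

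The counts of ADCY2 were spread over the exons of its principal transcript, which has 25 exons and 6575 bases. With an exon's count taken as the highest count of its bins, all 25 exons had counts in all 3 MUL1(-/-) libraries, from 1 to 32 per exon and with medians of 11, 11 and 9. In WT libraries 4 of the 25 exons had any count, and none had more than 1. The exon counts summed to 122, 94 and 72 over exons 1 to 8, to 63, 110 and 58 over exons 9 to 17, and to 74, 98 and 103 over exons 18 to 25 in MUL1(-/-) libraries 1 to 3. The library with the highest sum was not the same in each of the 3 groups of exons.

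Within the last exon, the first 814 bases had 13, 25 and 32 counts in the MUL1(-/-) libraries, and the remaining 2549 bases had 1, 0 and 0. The long end of the annotated exon was thus almost without counts. Of all ADCY2 counts, 95.1% fell in bins of the principal transcript's exons. Outside them, the largest number was in an 8599-base bin with 14, 10 and 13 counts in MUL1(-/-) and none in WT libraries. One 133-base bin, with 13, 14 and 10 counts, is also touched by an antisense gene (ENSG00000250761) and held 3.89% of the counts. Without that bin ADCY2 was at 2.42 ± 0.250 CPM in MUL1(-/-) libraries, and its WT values were the same.

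**Figure D2:**
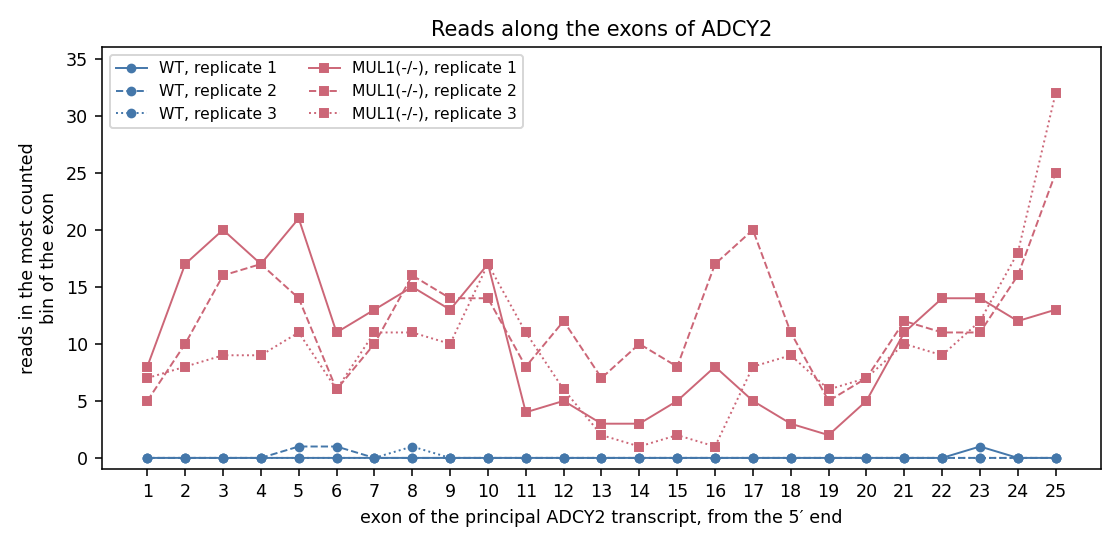
Counts over the 25 exons of the principal ADCY2 transcript in each library, with exon number on the x axis and the highest bin count of each exon on the y axis. Every exon carries 1 to 32 counts in the MUL1(-/-) libraries, and no WT exon carries more than 1.

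The genes that flank ADCY2 on chromosome 5 differed by side. Of the 10 tested genes upstream, 8 had a log2 fold change below 0 and 2 above, with a median of -0.18, and of the 10 downstream, 9 were above 0 and 1 below, with a median of 0.37. By the adjusted p alone 4 were lower and 1 higher upstream, and 5 higher and 1 lower downstream. Of all tested genes, 18.8% were higher and 18.7% lower by that rule. Past both thresholds were 5 of the 20, beside 8.11% of all tested genes. Some of these genes overlap in position, so the 20 are not separate loci. Upstream, IRX4-AS1 lies within IRX4, and both are among the 5. Downstream, MTRR overlaps CFAP90 and FASTKD3, CCT5 overlaps ENSG00000271980, and ATPSCKMT overlaps ENSG00000248968. The counting is not stated to use strand. Over the 5 tested genes on each side the median log2 fold change was 0.03, with a range of -3.59 to 1.36, and over 10 on each side it was 0.21. The nearest upstream gene, TENT4A, had a log2 fold change of -0.18 (SE 0.08, edgeR quasi-likelihood adjusted p = 0.0749). Immediately downstream, CFAP90 rose from 0.170 ± 0.00323 to 0.437 ± 0.100 CPM, a log2 fold change of 1.36 (SE 0.27, edgeR quasi-likelihood adjusted p = 0.00105). MTRR, the next gene, which encodes methionine synthase reductase, was at 64.1 ± 6.67 CPM in WT and 96.2 ± 4.32 CPM in MUL1(-/-) libraries, a log2 fold change of 0.59. Farther upstream, UBE2QL1 fell from 8.45 ± 0.718 to 0.703 ± 0.135 CPM, a log2 fold change of -3.59 (SE 0.15, edgeR quasi-likelihood adjusted p = 1.81e-10). These neighbours were named after their values were seen, and a difference between the sides was not tested. Around the 8 other tested members, the median over 5 genes on each side lay between -0.24 and 0.11.

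**Figure D3:**
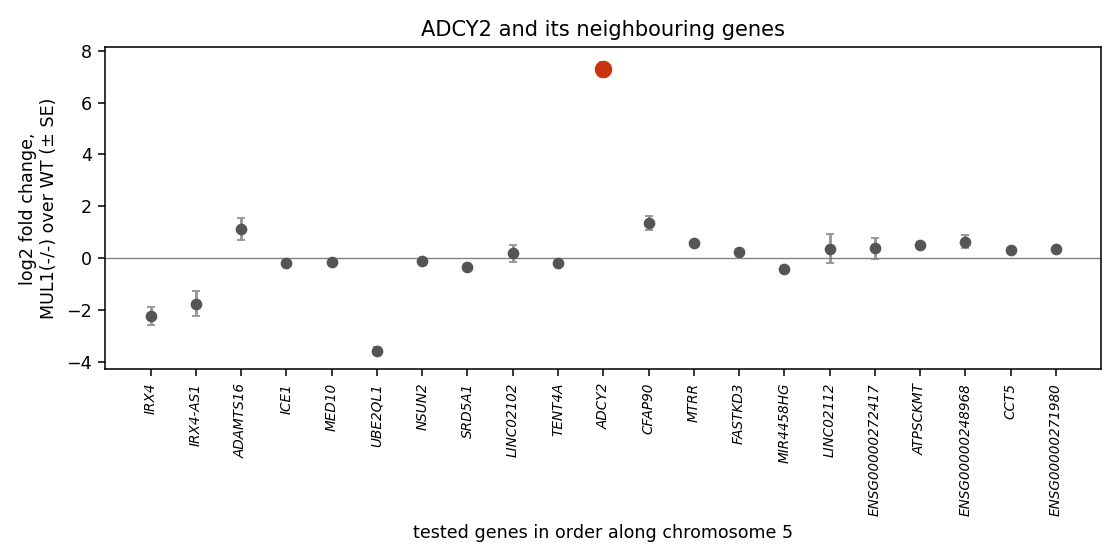
Log2 fold change, MUL1(-/-) over WT, of ADCY2 and of the 10 tested genes on each side of it in chromosomal order, with bars for the SE. ADCY2 stands at 7.28, and its neighbours run from -3.59 to 1.36.

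ADCY4 and ADCY7 are the other cyclases that beta-gamma subunits stimulate, and ADCY7 was the better expressed. ADCY7 (ENSG00000121281, chromosome 16 from 50246137 to 50318135, plus strand) was at 19.3, 18.7 and 18.7 CPM in WT and at 16.5, 16.8 and 15.97 CPM in MUL1(-/-) libraries. Every MUL1(-/-) library lay below every WT library. From means of 18.9 ± 0.355 and 16.4 ± 0.437 CPM, the log2 fold change was -0.20 (SE 0.08). However, 42.4% of its counts lay in bins that exons of BRD7, a gene on the opposite strand, also touch, and the counting is not stated to use strand. BRD7 had a log2 fold change of -0.14 (SE 0.07). In the bins that no other gene touches, ADCY7 was at 11.7, 11.02 and 9.64 CPM in WT and 9.39, 9.80 and 9.56 CPM in MUL1(-/-) libraries. The gap between the genotypes was no longer complete there, since WT library 3 fell below MUL1(-/-) library 2.

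ADCY4 (ENSG00000129467, chromosome 14 from 24318349 to 24335093, minus strand) was close to absent. Its counts were 22, 11 and 9 in WT and 9, 12 and 19 in MUL1(-/-) libraries. The libraries of the genotypes were interleaved, and the means were the same within their spread, at 0.107 ± 0.0570 and 0.107 ± 0.0422 CPM. Only 56.1% of these counts lay in exons of its principal transcript, and the median exon had 0 counts in each library. ADCY4 shares a joined identifier with another gene in the tables, so its count rests on bins assigned here by annotation.

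Of the calcium-stimulated members, ADCY3 was by far the most abundant cyclase of the line. ADCY3 (ENSG00000138031, chromosome 2 from 24819169 to 24919839, minus strand), the cyclase of olfactory neurons and primary cilia, was at 129, 122 and 114 CPM in WT and at 125, 120 and 124 CPM in MUL1(-/-) libraries. The 3 MUL1(-/-) values all fell inside the WT range. Its means were 122 ± 7.55 and 123 ± 2.34 CPM, a log2 fold change of 0.02 (SE 0.07). Bins that CENPO and an antisense gene also touch held 35.3% of its counts, and without them the level was 78.9 ± 5.46 CPM in WT and 79.2 ± 1.05 CPM in MUL1(-/-) libraries.

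ADCY1 (ENSG00000164742, chromosome 7 from 45574140 to 45723116, plus strand), a cyclase linked to synaptic plasticity, was at 28.6, 28.3 and 25.3 CPM in WT and at 29.4, 30.4 and 26.4 CPM in MUL1(-/-) libraries. The groups overlapped, and library 3 was the lowest of each genotype. Its log2 fold change was 0.07 (SE 0.08). The last bin of the gene, of 9424 bases, held most of its counts, at 15.1, 14.7 and 12.5 CPM in WT and 16.8, 17.2 and 15.3 CPM in MUL1(-/-) libraries, without overlap. Other bins went the opposite way, and a 79-base bin was at 0.464, 0.424 and 0.429 CPM in WT and 0.332, 0.320 and 0.266 CPM in MUL1(-/-) libraries. These bins were picked as extremes after their values were seen.

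ADCY8 (ENSG00000155897), the third calcium-stimulated cyclase, had 0 counts in all WT libraries and 1, 0 and 0 counts in the MUL1(-/-) libraries. It was the 1 member not tested, and a count of 0 allows up to 3 counts per library, or 0.0212 to 0.0242 CPM, as far as counting error goes.

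ADCY6 and ADCY5 are the cyclases that calcium inhibits, and both are known from heart. ADCY6 (ENSG00000174233, chromosome 12 from 48766194 to 48789037, minus strand) was at 66.5, 65.0 and 65.2 CPM in WT and at 70.0, 67.6 and 64.3 CPM in MUL1(-/-) libraries. The MUL1(-/-) values spanned the WT values on both sides. Means of 65.5 ± 0.814 and 67.3 ± 2.86 CPM gave a log2 fold change of 0.04 (SE 0.07). An antisense gene (ENSG00000257653) touches bins with 23.9% of these counts. Its 5′-most bin, chr12:48788906-48789037, was at 0.417, 0.318 and 0.365 CPM in WT and 0.925, 0.599 and 0.597 CPM in MUL1(-/-) libraries, although the gene as a whole differed little. No antisense exon touches that bin, and the bin was picked as the most extreme of the gene after its values were seen.

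ADCY5 (ENSG00000173175, chromosome 3 from 123282296 to 123449758, minus strand) was at 3.66, 3.98 and 3.66 CPM in WT and at 4.49, 4.65 and 3.59 CPM in MUL1(-/-) libraries. MUL1(-/-) libraries 1 and 2 lay above all WT libraries and library 3 below them. The log2 fold change was 0.17 (SE 0.13) from means of 3.77 ± 0.186 and 4.24 ± 0.571 CPM. It depended on the stretch counted and was 0.57 in the most counted bin, the 2347 bases at the 5′ end. That bin was at 0.449, 0.438 and 0.619 CPM in WT and 0.711, 0.823 and 0.678 CPM in MUL1(-/-) libraries.

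ADCY9 and ADCY10 stand outside these classes. ADCY9 (ENSG00000162104, chromosome 16 from 3953387 to 4116185, minus strand) was at 30.3, 30.002 and 26.2 CPM in WT and at 35.2, 30.8 and 29.6 CPM in MUL1(-/-) libraries. MUL1(-/-) library 1 was the highest of the 6, and library 3 of that genotype lay within the WT range. Its log2 fold change was 0.15 (SE 0.09). No exon of another gene touches its bins.

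The soluble cyclase ADCY10 (ENSG00000143199, chromosome 1 from 167809388 to 167914215, minus strand) had 73, 92 and 84 counts in WT and 135, 108 and 71 counts in MUL1(-/-) libraries. The MUL1(-/-) libraries were both the highest and the lowest, so that the groups overlapped. Mean levels were 0.631 ± 0.0492 and 0.834 ± 0.248 CPM, and the log2 fold change of 0.40 (SE 0.22) went to 0.20 without MUL1(-/-) replicate 1 and to 0.61 without MUL1(-/-) replicate 3. Although low, its reads were spread over the gene, with counts in 32 of 33 exons in at least 1 WT library and at most 9 per exon.

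Exon bins with a mean of at least 5 counts were compared between genotypes for the expressed members, beside all 355281 such bins, of which 19.4% were higher and 19.9% lower in MUL1(-/-) libraries without overlap. For ADCY7 0 of 44 bins were higher and 7 lower, and for ADCY9 3 of 22 were higher and 0 lower. ADCY5 had 6 higher and 0 lower of 30. Both directions occurred in ADCY6, with 6 higher and 3 lower of 42, in ADCY3, with 3 and 2 of 49, and in ADCY1, with 2 and 4 of 24. The shares of higher and of lower bins in these genes were close to or below those of all bins. At a mean of at least 20 counts, where 21.4% of all bins were higher and 22.2% lower, ADCY7 had 0 higher and 6 lower of 38 and ADCY5 had 3 higher and 0 lower of 5. ADCY2 and ADCY10 had 0 bins at that higher minimum. At a mean of at least 5 counts, neither of the 2 bins of ADCY10 was separated. The 15 bins of ADCY2 with a mean of at least 5 counts were all higher. However, they passed that minimum only through the MUL1(-/-) libraries and had to differ. Bins of 1 gene share reads and are not replicates.

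Divided by exon length, levels can be ranked between genes. In WT cells the order in CPM per kb was ADCY3 (20.1 ± 1.25), ADCY6 (7.79 ± 0.0968), ADCY9 (2.78 ± 0.223), ADCY7 (2.19 ± 0.0411), ADCY1 (2.02 ± 0.137), ADCY5 (0.425 ± 0.0209), ADCY10 (0.103 ± 0.00802), ADCY4 (0.0143 ± 0.00760), ADCY2 (0.000853 ± 0.000380) and ADCY8 (0). No neighbours in this order overlapped between libraries. In MUL1(-/-) cells ADCY3 (20.3 ± 0.386), ADCY6 (8.004 ± 0.340) and ADCY9 (3.08 ± 0.288) again led. ADCY1 (2.12 ± 0.155) and ADCY7 (1.91 ± 0.0506) had changed places, and ADCY2 had moved from ninth to the seventh place at 0.143 ± 0.0151 CPM per kb. By this length ADCY2 did not differ there from ADCY10 (0.136 ± 0.0405) beyond the spread of the libraries. These places rest on the length used. With the exons of the principal transcripts alone, ADCY7 (5.95% of the family) stayed before ADCY1 (5.36%) in MUL1(-/-) libraries, and ADCY2 (0.860%) stood above ADCY10 (0.333%). By bins of at least 200 bases ADCY2 (0.120%) stood below ADCY10 (0.515%). The level of the whole family was 35.4 ± 1.69 CPM per kb in WT and 36.2 ± 0.984 CPM per kb in MUL1(-/-) libraries, a difference smaller than the spread.

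As shares of the family, ADCY3 made up 56.7 ± 0.834% in WT and 56.1 ± 1.38% in MUL1(-/-) libraries, and ADCY6 22.04 ± 0.880% and 22.1 ± 0.422%. ADCY7 took 6.20 ± 0.211% and 5.27 ± 0.145%, without overlap between the genotypes. The share of ADCY2 was 0.00239 ± 0.00103% in WT and 0.396 ± 0.0410% in MUL1(-/-) libraries, so even where it was detected it remained a small part of the family. That share depends on the length used and became 0.860% with the exons of the principal transcripts alone. By class, the beta-gamma-stimulated cyclases went from 6.24 ± 0.198% to 5.70 ± 0.182%, with the lower share of ADCY7 outweighing the higher share of ADCY2. The calcium-stimulated class held 62.4 ± 0.908% and 62.0 ± 1.09%, and the calcium-inhibited class 23.2 ± 0.919% and 23.4 ± 0.578%. With the exons of the principal transcripts alone, the beta-gamma-stimulated class held 7.14 ± 0.253% and 6.86 ± 0.224%, and the genotypes overlapped. The order of the leading members rests on the measure, since by the most counted bin ADCY6 (26.2%) and ADCY1 (24.1%) stood before ADCY3 (21.6%) in WT cells.

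**Figure D4:**
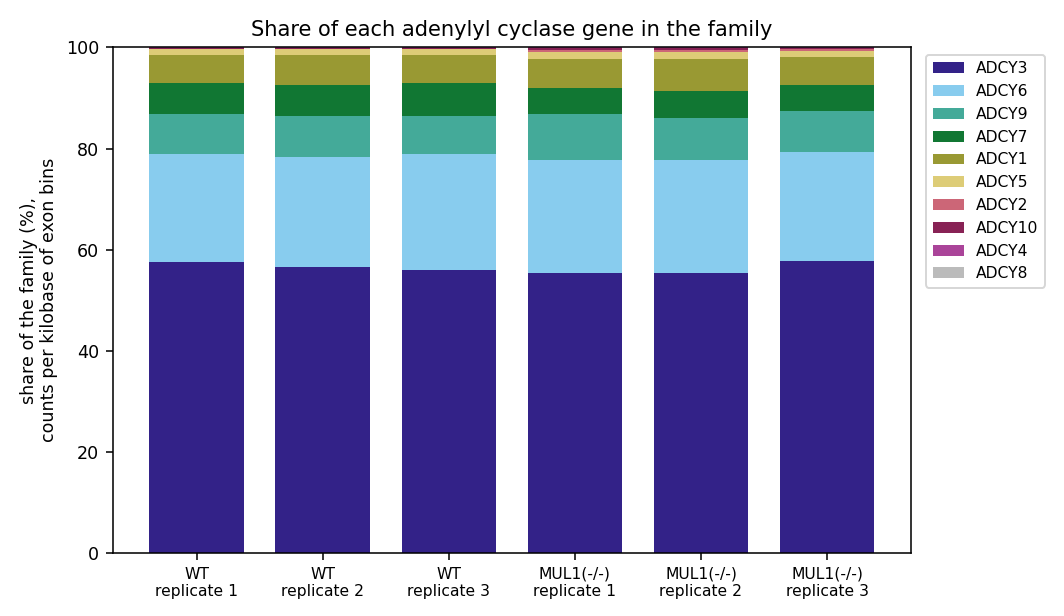
Share of each member in the summed level of the family, in percent of CPM per kb, in each of the 6 libraries. ADCY3 and ADCY6 fill most of every bar, with means of 56.7% and 22.04% in WT libraries, and ADCY2 reaches 0.396% in MUL1(-/-) libraries.

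The genes around the cyclases were taken from 11 lists with 170 genes, of which 135 could be tested. Past both thresholds, 9 were higher and 3 lower in MUL1(-/-) cells, together 8.89% of those tested, beside 8.11% of all genes. The median log2 fold change over the lists was 0.05. By both thresholds, the share of changed genes around the cyclases was thus close to that of the transcriptome. By the adjusted p alone, 36 of the 135 were higher and 27 lower, beside 18.8% and 18.7% of all tested genes.

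Among the 7 G protein alpha subunits, 0 passed both thresholds, and 4 were lower by the adjusted p alone, a rule by which 18.7% of all tested genes were lower. The median of the list was -0.40. GNAS, whose product activates the membrane cyclases, was at 2362, 2109 and 1963 CPM in WT and at 1459, 1378 and 1577 CPM in MUL1(-/-) libraries, without overlap. Its log2 fold change was -0.54 (SE 0.08, edgeR quasi-likelihood adjusted p = 5.24e-05). Of the inhibitory subunits, GNAI1 had a log2 fold change of -0.49 (SE 0.07, edgeR quasi-likelihood adjusted p = 1.07e-04) and GNAI2 one of -0.73 (SE 0.08, adjusted p = 3.19e-06), whereas GNAI3 was at 80.8 ± 7.82 CPM in WT and 89.6 ± 3.14 CPM in MUL1(-/-) libraries (log2 fold change 0.15, adjusted p = 0.147). The most abundant beta subunit, GNB1, was at 437 ± 15.8 and 319 ± 11.4 CPM, and none of the 14 tested beta and gamma subunits passed both thresholds. Nor did any of the 11 cyclase regulators, where the calmodulin gene CALM3 was at 385 ± 23.8 and 683 ± 43.4 CPM (log2 fold change 0.83, edgeR quasi-likelihood adjusted p = 5.07e-07).

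Of 45 Gs-coupled receptor genes 26 were tested, and past both thresholds GHRHR, CALCR and HRH2 rose while ADRB1 and PTH1R fell. These were 19.2% of the 26, beside 8.11% of all tested genes. All 5 had means under 1 CPM over the 6 libraries, and the fold threshold was missed by ADRB1 without MUL1(-/-) replicate 3 (log2 fold change -0.92), by ADRB1 with library totals (-0.99) and by PTH1R without MUL1(-/-) replicate 1 (-0.96). The most abundant receptor of the list, VIPR1, was at 9.50 ± 0.965 and 9.63 ± 0.717 CPM. At the other end of the pathway, 2 of 15 tested phosphodiesterases, the enzymes that degrade cAMP, rose and 0 fell. By the same rule 4.23% of all tested genes were higher and 3.87% lower. PDE1A, which calcium and calmodulin activate, rose from 3.04 ± 0.560 to 7.78 ± 1.25 CPM, a log2 fold change of 1.36 (SE 0.15, edgeR quasi-likelihood adjusted p = 5.38e-06). PDE1C had 0, 1 and 1 counts in WT and 27, 30 and 14 in MUL1(-/-) libraries, at least 7.92-fold higher by the floor of 3 counts per library. The most abundant, PDE8A, had a log2 fold change of 0.34 (edgeR quasi-likelihood adjusted p = 0.00403).

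Among 9 tested protein kinase A genes 1 rose past both thresholds, by which 4.23% of all tested genes were higher and 3.87% lower. This was the regulatory subunit PRKAR1B, from 21.0 ± 2.69 to 42.7 ± 4.37 CPM, a log2 fold change of 1.02 (SE 0.10, edgeR quasi-likelihood adjusted p = 1.99e-06). It lay so close to the fold threshold that it missed it at 0.92 by the most counted bin, at 0.97 without WT replicate 1, at 0.96 without WT replicate 2 and at 0.97 without MUL1(-/-) replicate 3. PRKAR1A, the most abundant, was at 118 ± 1.87 and 123 ± 9.19 CPM. None of 11 tested anchoring proteins passed both thresholds, with AKAP1 at a log2 fold change of 0.31. RAPGEF3, which encodes an exchange factor of the EPAC group, fell from 15.6 ± 3.71 to 5.96 ± 0.851 CPM. Its log2 fold change was -1.39 (SE 0.15, edgeR quasi-likelihood adjusted p = 5.70e-06). RAPGEF4, of the same group, was at 14.5 ± 0.933 and 12.6 ± 0.285 CPM (log2 fold change -0.20, edgeR quasi-likelihood adjusted p = 0.0846). In the same list of 11 tested effectors and exporters, POPDC2 rose, at under 1 CPM, with a log2 fold change of 1.13 that was 0.93 without WT replicate 1, 0.96 without MUL1(-/-) replicate 3 and 0.11 when its joined identifier was kept whole. The exporter gene ABCC5 was at 46.7 ± 1.62 and 90.04 ± 3.50 CPM, a log2 fold change of 0.95 just under the threshold.

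No gene among 11 CREB factors and coactivators passed both thresholds, with EP300 at a log2 fold change of 0.36. Of 14 tested target genes of CREB, the transcription factor that protein kinase A phosphorylates, 2 rose and 0 fell past both thresholds. Of all tested genes, 4.23% were higher and 3.87% lower by that rule. By the adjusted p alone 4 of the 14 were higher and 4 lower, beside 18.8% and 18.7% of all tested genes. The median log2 fold change of the list was -0.12. FOSB was at 1.94, 2.06 and 1.95 CPM in WT and at 5.59, 5.90 and 3.26 CPM in MUL1(-/-) libraries, a log2 fold change of 1.31 (SE 0.18, edgeR quasi-likelihood adjusted p = 5.19e-05). EGR1 was at 6.53, 7.54 and 6.49 CPM in WT and at 15.4, 21.5 and 8.65 CPM in MUL1(-/-) libraries, and its log2 fold change of 1.15 (edgeR quasi-likelihood adjusted p = 7.55e-04) went to 0.82 without MUL1(-/-) replicate 2. Both are immediate early genes that many signals besides cAMP induce. PER1, the most abundant target, was at 29.1 ± 4.20 and 26.3 ± 2.86 CPM. The guanylyl cyclases, which make cyclic GMP, had 0 of 6 tested genes past both thresholds, with GUCY1B1 at a log2 fold change of -0.56.

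**Figure D5:**
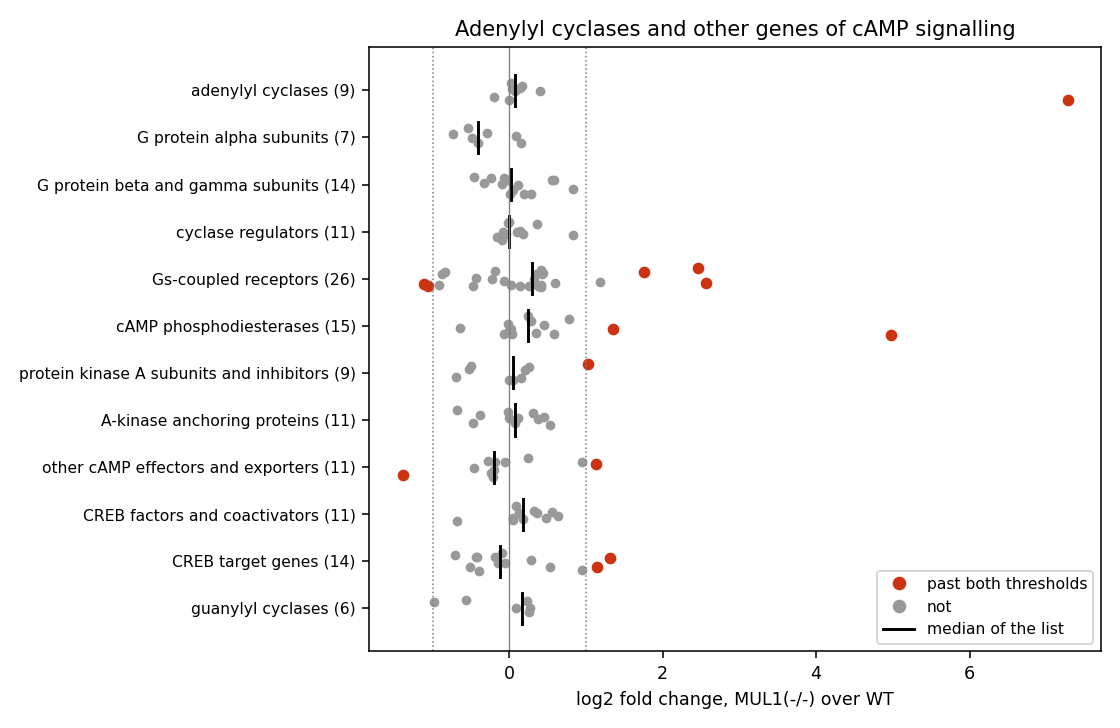
Log2 fold change, MUL1(-/-) over WT, of each tested cyclase (top row) and of each tested gene in the 11 lists of the cAMP pathway, with 1 row per list, a bar at its median and red points past both thresholds. Of the 135 genes of the lists, 9 lie above 1 and 3 below -1 with an adjusted p under 0.05, and the list of G protein alpha subunits has a median of -0.40.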

How the data were processed

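RNA-seq of 6 HEK293 libraries, 3 WT and 3 MUL1(-/-), was taken as raw read counts per exon bin, which the authors deposited without normalization. Trimmomatic 0.36, STAR 2.5.2b and GRCh38 are named in the submitters' processing notes. The counting program, its strand setting and the annotation release are not given in the sources used here. Genes were counted as sums over their bins, so a read that touches several bins counts in each and the sums exceed the reads. Of 597973 bins, those under 2031 joined identifiers were divided by same-strand exons of GENCODE 29, and bins touched by several or none of the joined genes were left out (4.37% of counts). Design and tests had assumed counts per gene.

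Genes were tested with edgeR 4.0.16 (limma 3.58.1, R 4.3.3) by the quasi-likelihood test with TMM factors, on 25125 genes kept by the default filter, with Benjamini-Hochberg adjustment, with thresholds of 0.05 on the adjusted p and 1 on the absolute log2 fold change. The SE of a log2 fold change was derived from that test, as its absolute value divided by the square root of the F statistic. DESeq2 1.42.0 was an alternative. Tables were joined in Python 3.11.15 with pandas 2.3.3 and numpy 2.4.6, and plots drawn with matplotlib 3.10.9. The fit was tested on simulated data. Replicates are separate samples by label, and nothing says that they came from separate cultures, so p-values measure the spread between these samples only. Chi-square over its degrees of freedom was 2.95 to 10.8 between replicates, which were therefore kept apart. A floor of 3 counts covers counting error only. The members and lists were chosen with earlier results of these data known. The lists were compiled by hand. Named are all members, MUL1, GNAS, GNAI1 to GNAI3 and, of each list, the most abundant gene and up to 4 genes past both thresholds with a mean of at least 1 CPM. Other genes are named where a count of 5 or fewer needs them, and RAPGEF4 and neighbours of ADCY2 after their values were seen. Alternatives were other scalings, filters, bins, DESeq2, the replicate block, each library left out and the adjusted p alone; shares by principal exons and by bins of at least 200 bases were added after seeing the data.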

Additional observations from a re-analysis of the deposited data

How the results depend on the processing

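Over the alternatives the fitted log2 fold change of ADCY2 was 7.002 to 7.61, which is a description, since the members were chosen by these values. ADCY3, at 0.02, went to -0.03 without WT replicate 3, and ADCY4, at -0.0039, to 0.51 without WT replicate 1. No gene past both thresholds changed direction. ADCY1 went to 0.23 and ADCY5 to 0.57 by the most counted bin, and ADCY4 to -0.35 without MUL1(-/-) replicate 3. Library totals moved the median of all genes by 0.07. Of the pathway genes, 9 were higher and 3 lower. The higher ones were 4 with at least 1 CPM in 3 samples, 5 by the most counted bin and 36 by the adjusted p alone. The lower ones were 5 by unshared bins, 5 without MUL1(-/-) replicate 2 and 27 by the adjusted p alone. Leaving out each library gave 7 to 9 higher and 2 to 5 lower. Shares depend on length, and ADCY2 made up 0.120% of the family in MUL1(-/-) libraries by bins of at least 200 bases and 0.914% without division by length. With the replicate number as a block, 9 pathway genes were higher and 4 lower. Same-numbered libraries had deviations that correlated at -0.0812 to 0.157, so the numbers were not taken as pairs. Depth limits ADCY8, ADCY4 and the WT level of ADCY2.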
